A study of Mus musculus with 4 samples.

Results

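The replication-dependent histone genes are the clustered genes whose symbols begin with Hist1h, Hist2h, Hist3h or Hist4h. A list of CHD4 CUT&Tag peaks in mouse spermatogonial cells named 12 of them as the gene with the nearest transcript start. Rows of that list with the same chromosome, start and end were taken as 1 interval, and the 12 genes then held 13 of the 1849 intervals and 14 of the 2066 summits. The list as a whole named 1517 genes. RefSeq holds 70 genes with such names on the mouse assembly GRCm38.p6, of which 67 are protein-coding and 3 are pseudogenes, and all 12 named genes were found there by their identifier.

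These genes make the linker histone H1 and the core histones H2A, H2B, H3 and H4, whose proteins wrap DNA into nucleosomes. Most are switched on together in S phase and lack introns. Their transcripts mostly end in a stem-loop in place of a poly(A) tail. That end is cut with the help of the U7 small nuclear RNA. H2A and H2B genes often stand back to back and share 1 stretch of promoter DNA. CHD4 is a chromatin remodeller, the motor of the NuRD complex, which moves nucleosomes and removes acetyl groups from histones. Spermatogonia are the dividing germ cells at the base of the seminiferous tubule, among which are the stem cells of the male germ line.

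CUT&Tag uses an antibody to bring a transposase to chromatin, so that DNA beside the bound protein is tagged in place and sequenced. There were 2 samples with the CHD4 antibody (Abcam, ab70469) and 2 with a rabbit anti-mouse IgG H&L (HRP), all from C57BL/6 mice with no other genotype or treatment in the labels, and the labels call the cells spermatogonial and the replicates biological. The cells came from digested testes, and the labels used here do not say how spermatogonia were sorted from the remaining testis cells. The comparison of CHD4 with IgG asks where on the genome CHD4 was found. The deposited list is 1 call of CHD4 over IgG across the replicates, so it has no value for a single sample, no replicate error and no expression values against which the cell type could be checked.

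The 13 intervals fell into 3 kinds by position. In 8, a RefSeq start of a histone gene lay within 1 kb, and in 6 of these 8 the start lay inside the interval. Another 4 lay within 100 bases of a transfer RNA (tRNA) gene and 6.33 to 12.9 kb from the histone start the authors assigned. The remaining 1, named for the pseudogene Hist1h2al, lay 96.2 kb from it. The limit of 100 bases was chosen after the positions had been seen.

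The promoter DNA beside the covered starts is shown first, since the location of CHD4 at these genes is what the list records. At 3 places the interval reached the DNA between the starts of an H2A and an H2B gene that are read in opposite directions. Each of these intervals also ran past a start into a gene. The DNA between the starts of each pair is given below from RefSeq GRCm38.p6, in which chromosome coordinates equal those of mm10, on the plus strand. Capitals mark the CCAAT box (CCAAT), the TATA box (TATAA), the octamer of H2B promoters (ATTTGCAT), the H1 box (AAACACA) and the motif CGCGAAAA, on either strand, so that a CCAAT box on the minus strand reads ATTGG. The positions are chr13:21716184-21716411, chr13:22035644-22035820 and chr13:22042950-22043197.
Hist1h2bl/Hist1h2ai: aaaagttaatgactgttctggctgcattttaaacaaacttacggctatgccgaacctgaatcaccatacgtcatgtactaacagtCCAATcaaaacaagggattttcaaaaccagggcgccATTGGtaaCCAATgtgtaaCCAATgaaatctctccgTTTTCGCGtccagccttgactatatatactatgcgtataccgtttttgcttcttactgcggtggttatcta
Hist1h2ah/Hist1h2bk: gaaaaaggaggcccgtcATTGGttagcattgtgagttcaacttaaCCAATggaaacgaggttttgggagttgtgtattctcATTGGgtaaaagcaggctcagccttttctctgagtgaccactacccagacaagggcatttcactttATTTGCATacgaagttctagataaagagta
Hist1h2ag/Hist1h2bj: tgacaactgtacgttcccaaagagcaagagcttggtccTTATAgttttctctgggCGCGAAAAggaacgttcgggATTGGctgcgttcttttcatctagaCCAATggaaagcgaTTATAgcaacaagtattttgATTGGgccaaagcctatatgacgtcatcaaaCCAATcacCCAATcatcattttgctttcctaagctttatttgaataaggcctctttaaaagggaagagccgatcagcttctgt

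These stretches of 228, 177 and 248 bases held 4, 3 and 5 CCAAT boxes. None of the 3 CCAAT boxes of Hist1h2ah/Hist1h2bk lay under the interval, which covered the last 54 bases of that stretch. The interval covered 77.6% of the DNA between Hist1h2bl and Hist1h2ai, 30.5% of that between Hist1h2ah and Hist1h2bk and 100% of that between Hist1h2ag and Hist1h2bj. The octamer was found in 1 of the 3, Hist1h2ah/Hist1h2bk, close to the H2B start. CGCGAAAA, a motif chosen after the sequences had been seen, occurred in the other 2.

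The 250 bases before the start are shown for the 3 other genes with a start inside an interval, each on the strand of its gene. They are Hist1h2bm (chr13:21721794-21722043, plus strand), Hist1h1d (chr13:23554782-23555031, plus strand) and Hist1h1e (chr13:23622559-23622808, minus strand). The capitals mark the same 5 motifs.
Hist1h2bm: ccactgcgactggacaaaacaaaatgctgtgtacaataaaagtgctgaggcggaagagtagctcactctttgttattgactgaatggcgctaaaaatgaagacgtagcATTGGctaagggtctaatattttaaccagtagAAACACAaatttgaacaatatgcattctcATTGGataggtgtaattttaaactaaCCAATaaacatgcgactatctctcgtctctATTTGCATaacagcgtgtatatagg
Hist1h1d: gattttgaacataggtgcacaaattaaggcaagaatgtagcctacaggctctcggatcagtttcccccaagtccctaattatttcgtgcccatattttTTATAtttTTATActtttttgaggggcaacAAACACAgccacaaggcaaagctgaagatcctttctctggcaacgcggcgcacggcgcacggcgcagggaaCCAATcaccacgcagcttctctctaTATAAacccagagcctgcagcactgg
Hist1h1e: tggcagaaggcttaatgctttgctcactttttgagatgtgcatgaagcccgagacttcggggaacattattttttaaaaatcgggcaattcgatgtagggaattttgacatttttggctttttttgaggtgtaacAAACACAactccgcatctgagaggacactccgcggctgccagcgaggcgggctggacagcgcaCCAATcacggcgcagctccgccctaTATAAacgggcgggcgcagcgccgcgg

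Both H1 promoters carried the H1 box, then 1 CCAAT box and a TATA box close to the start. The intervals reached only 2 and 38 of these 250 bases at Hist1h1d and Hist1h1e, because they lay over the first part of the gene. The H1 box and the CCAAT box of both promoters thus lay outside the intervals. At Hist1h2bm the interval covered 52.8% of the bases shown.

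The 5 motifs also occurred in histone promoters whose start lay outside every interval. The CCAAT box was found in 54 of 63 histone promoters (85.7%) in windows of 300 bases, from 250 before to 50 after a start, against 37.4% of all 32851 RefSeq promoters. It was present in every H1, H2A, H2B and H3 promoter searched and in 3 of 12 H4 promoters. TATAA was found in 79.4% of histone promoters against 24.9% of all. The octamer was found in 22.2% against 1.74%, at 7 of 18 H2A and 7 of 17 H2B promoters and at no H1, H3 or H4 promoter. Some of these H2A windows reach the same DNA as the H2B window of their pair. The H1 box was found in 14.3% against 7.18%, and in 5 of 6 H1 promoters. CGCGAAAA, chosen after the sequences had been seen, was found in 17.5% against 0.231%. Its shares here and below are partly set by that choice. Of the 7 histone genes with a start inside an interval, 7 carried CCAAT, 5 TATAA, 2 the octamer, 3 the H1 box and 4 CGCGAAAA. The windows of 300 bases reach beyond the DNA shown above, and not every TATAA and CGCGAAAA match of these 7 genes lies in it. Among the other 56 histone promoters, some of them partly under an interval, the shares were 83.9%, 80.4%, 21.4%, 10.7% and 12.5%. Hist1h2ag and Hist1h2bj share promoter DNA, so a single CGCGAAAA site there counts for both genes. These matches are letters in a window and not measured binding sites.

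Of the 67 protein-coding histone genes, 11 were named, or 16.4% (exact 95% binomial interval 8.49 to 27.5), where the background over 21775 protein-coding genes was 6.1%. A start inside an interval is a stricter criterion, and 7 of 62 histone genes with a RefSeq start in the promoter table met it (11.3%, 4.66 to 21.9), where 0.846% of all protein-coding genes did. A start within 1 kb was found for 11 of 62 (17.7%, 9.20 to 29.5), against a background of 2.7%. The gene body overlapped an interval in 8 of 67 (11.9%, background 4.28%), and the body widened by 1 kb in 11 of 67 (16.4%, background 5.24%). These genes are neighbours and some share an interval, so they are not independent, and the binomial intervals cover counting error only.

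The named genes and the genes with an interval at the start were not the same set. Of the 12 named genes, 10 had a RefSeq start within 1 kb of an interval. The other 2 were Hist1h4h and the pseudogene Hist1h2al. Among the 10, Hist1h2ah and Hist1h2bj were named only for intervals at tRNA genes, as was Hist1h4h. The intervals at or near their starts were given to Hist1h2bk and Hist1h2ag. Only 7 of the 12 genes were named by an interval that overlaps their own body. Hist1h2ai, an H2A gene, was not named although its start lay 52 bases from the Hist1h2bl interval.

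By type, 2 of 6 H1 genes, 3 of 20 H2A genes, 4 of 19 H2B genes, 1 of 12 H3 genes and 2 of 13 H4 genes were named. Starts inside an interval were found for 2 of 6 H1, 1 of 18 H2A and 4 of 16 H2B genes, and for 0 of 10 H3 and 0 of 12 H4 genes with a start in the promoter table. For H3 and H4, the nearest of these starts to an interval was that of Hist1h4i, 117 bases away, followed by Hist2h3c2 at 718 bases. The counts per type are small, and no difference between types was tested.

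**Figure D1:**
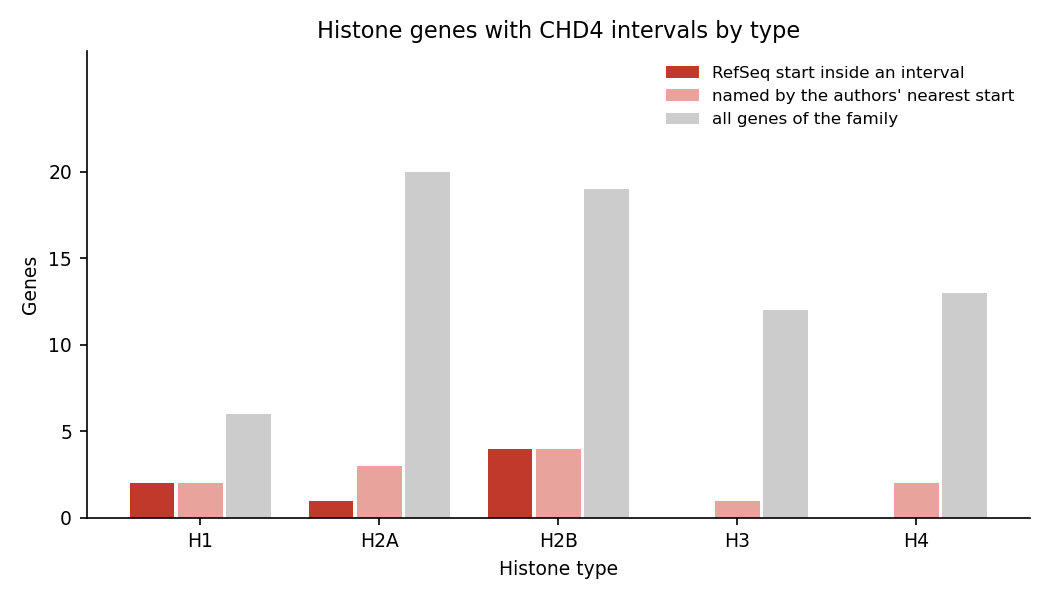
Bars give numbers of genes by histone type: a RefSeq start inside an interval (red), named by the authors as nearest start (pink) and all genes of the family, pseudogenes included (grey). H2B has 4 starts inside an interval, H1 has 2 and H2A has 1, and H3 and H4 have none.

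By cluster, 11 of 56 Hist1 genes and 1 of 10 Hist2 genes were named, and 0 of 3 Hist3 genes and 0 of 1 Hist4 genes. All 7 starts inside an interval were Hist1 genes. The nearest interval to a Hist3 gene start was 646 kb away, and the nearest to the Hist4h4 start was 305 kb away.

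The intervals of the linker histones had 2 of the 3 highest folds and few CHD4 fragments. Fold is the caller's ratio of CHD4 signal to IgG background at the summit. The CHD4 fragments are the number recovered at the summit, and the IgG expectation is the number of fragments that IgG predicts there at the depth of the IgG library. The CHD4 library was 2.33 times as deep, so the caller multiplies the CHD4 number by 0.4287, adds 1 to both and divides, and the fold is smaller than the plain ratio of the 2 numbers. Hist1h1e (H1f4, gene 50709), on chromosome 13 at 23622321 to 23622596, had 18 CHD4 fragments (10.7 to 28.4, an exact 95% Poisson interval) where IgG predicted 0.369, a fold of 6.37. Its summit lay 141 bases past the start. Hist1h1d (H1f3, gene 14957), at 23555030 to 23555249, had 23 CHD4 fragments (14.6 to 34.5) where IgG predicted 0.738, a fold of 6.25. Both folds thus rest on IgG expectations under 1 fragment, and the lowest of the list was 0.346. The authors placed the Hist1h1d interval 1.77 kb from a start, counting from a transcript that begins at 23553262. The RefSeq gene begins at 23555032, so the interval contains that start and has its summit 134 bases past it. The other 4 H1 genes, Hist1h1a, Hist1h1b, Hist1h1c and the testis form Hist1h1t, were not named, and their starts lay 58.4 to 141 kb from any interval.

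All 4 named H2B genes had a start inside an interval. Hist1h2bk (H2bc12, gene 319184), at 22035767 to 22036020, had 35 CHD4 fragments (24.4 to 48.7) where IgG predicted 2.03, a fold of 5.28. Its summit lay 44 bases past its own start and 222 bases before that of the H2A gene Hist1h2ah. Hist1h2bm (H2bc14, gene 319186), at 21721912 to 21722216, had the lowest fold of the 13, 3.02, from 40 fragments (28.6 to 54.5) over 5. Its summit lay 51 bases past the start. Hist1h2bl (H2bc13, gene 319185), at 21716124 to 21716360, had a fold of 3.57 from 31 fragments (21.1 to 44.0) over 3. Here the summit was the last base of the interval, 177 bases before the Hist1h2bl start and 52 bases before that of Hist1h2ai, which places it between the pair. At these 3 promoters the CHD4 fragments, 31 to 40, had overlapping intervals, while the IgG expectations were 2.03 to 5.

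The interval with the most fragments was that of Hist1h2ag (H2ac11, gene 319167), an H2A gene, at 22042841 to 22043240. It held 2 summits and the starts of both Hist1h2ag and the H2B gene Hist1h2bj (H2bc11, gene 319183). The higher summit held 52 CHD4 fragments (38.8 to 68.2) where IgG predicted 4, a fold of 4.66, and its −log10 q of 5.54 was the highest of the 13. It lay 22 bases before the Hist1h2bj start. The lower summit had a fold of 3.79 from 31 fragments (21.1 to 44.0) over 2.77. The list gives both summits to Hist1h2ag, and names Hist1h2bj for another interval 7.6 kb away.

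**Figure D2:**
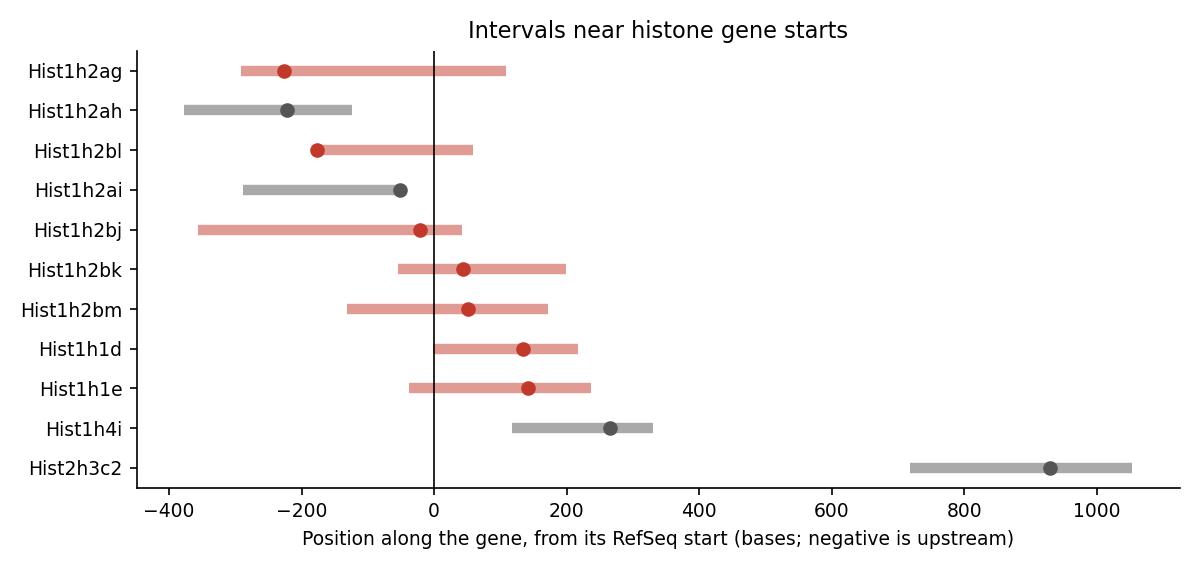
Bars give the intervals within 1 kb of a RefSeq histone start along the direction of each gene, in bases from that start, and points give the summit of highest fold. Red bars contain the start and grey bars do not, and an interval near the starts of a pair of genes is drawn once for each gene. Summits lie from 227 bases before to 141 bases past the start where the start is covered, and the Hist2h3c2 bar begins 718 bases past it.

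One H4 and one H3 gene had an interval near the start that did not contain it. Hist1h4i (H4c9, gene 319158), at 22041032 to 22041245, had 21 CHD4 fragments (13 to 32.1) where IgG predicted 1.66, a fold of 3.76. The interval lay inside the gene with its summit 265 bases past the start, and its −log10 q of 1.37 was the lowest of the 13. Hist2h3c2 (H3c15, gene 97114), the named gene of the Hist2 cluster, had its interval on chromosome 3 at 96238073 to 96238409. It held 25 fragments (16.2 to 36.9) over 2, a fold of 3.91, and its −log10 q was 1.42. The summit lay 930 bases from the start, beyond the end of the RefSeq gene at 96238479, so no RefSeq gene lay under the interval, while the authors' transcript extends to 96238108. By the authors' distance of 718 bases it still counts as a promoter interval.

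The 4 intervals at tRNA genes carried histone names because a histone start was the nearest. The authors' annotation classed those named for Hist1h4h and Hist1h2bj as exon, and also the Hist1h2ah interval at 22026557. It classed the Hist1h2ah interval at 22028966 as intron. Hist1h2ah (H2ac12, gene 319168) was named for 2. The one at 22028966 to 22029243 overlapped the tRNA gene n-TIaat7 and had 29 CHD4 fragments (19.4 to 41.6) where IgG predicted 1.11, a fold of 6.37. The one at 22026557 to 22026752 overlapped n-TVcac8 and had a fold of 4.79, from 20 fragments (12.2 to 30.9) over 1. The Hist1h4h interval (H4c8, gene 69386), at 23517748 to 23518185, overlapped n-TMcat6 and n-TStga1 and was the widest of the 13 at 438 bases. Its fold was 4.98, from 35 fragments (24.4 to 48.7) over 2.21, and it lay 12.9 kb upstream of Hist1h4h. The Hist1h2bj interval, at 22050812 to 22051040, lay 45 bases from n-TSgct5 with no RefSeq gene under it. Its fold was 4.0, from 38 fragments (26.9 to 52.2) over 3.32. Which of the neighbouring genes CHD4 was at cannot be told apart from a nearest start.

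The interval named for Hist1h2al (H2af-ps2, gene 667728), a transcribed pseudogene outside the cluster, lay at 51299282 to 51299604. It overlapped the long non-coding RNA gene Gm46414 and had 20 CHD4 fragments (12.2 to 30.9) where IgG predicted 1, a fold of 4.79.

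As a set, the histone intervals were close to the whole list in strength. Their median fold was 4.79 (range 3.02 to 6.37) against 4.76 (1.75 to 13.6) over all intervals, and their median −log10 q was 2.92 against 2.90. Their median of CHD4 fragments was 29 (18 to 52) against 27 (12 to 177), over a median IgG expectation of 2 against 1.31. The median width was 276 bases against 280. The 6 intervals with a start inside had a median fold of 4.97 (3.02 to 6.37) and the 4 at tRNA genes one of 4.88 (4.0 to 6.37), so the ranges of these kinds overlap. In the whole list, 13.8% of intervals had a fold above that of the highest histone interval, and 93.9% one above that of the lowest.

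**Figure D3:**
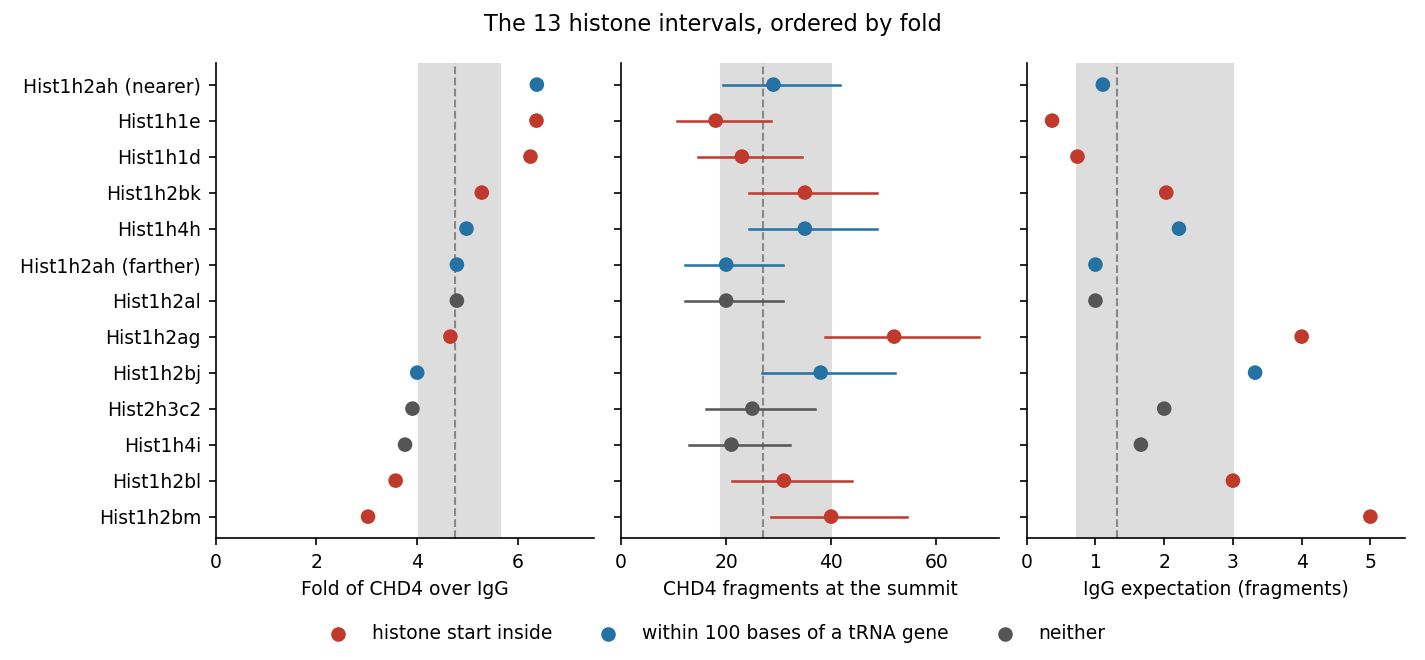
Each row is 1 of the 13 intervals, with its fold of CHD4 over IgG, the CHD4 fragments at its summit with exact 95% Poisson intervals, and the IgG expectation in fragments at the depth of the IgG library. Dashed lines are the medians and grey bands the quartiles of all 1849 intervals, and the colours (histone start inside, tRNA gene within 100 bases, neither) all overlap in fold between 4.0 and 4.79.

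By the authors' annotation, 7 of the 13 histone intervals (53.8%, exact 95% interval 25.1 to 80.8) were promoter intervals within 1 kb of a start, where 34.1% of all intervals were. Their median fold was 3.91, against 4.32 over all 631 promoter intervals. The interval contained the authors' start in 5 of 13 (38.5%), where 15.7% of all intervals did. By RefSeq starts these counts were 8 and 6 of 13, as the Hist1h1d interval moves to the start. A tRNA gene was overlapped by 3 of 13 (23.1%, 5.04 to 53.8), where 1.03% of all intervals overlapped one, and 4 of 13 lay within 100 bases of one, where 1.46% did.

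The Hist1 cluster of chromosome 13, from Hist1h2bl to Hist1h2aa (21715711 to 23934913, 2.22 Mb), held 55 histone genes and 77 of the 403 tRNA genes in the table. It held 19 intervals, or 8.56 per Mb, against 0.678 per Mb over the rest of the annotated chromosome. That is 19.6% of the 97 intervals of chromosome 13, and the cluster holds 12.5% of its 829 protein-coding genes. Of the 19 intervals, 11 were named for histone genes and 8 for other genes.

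**Figure D4:**
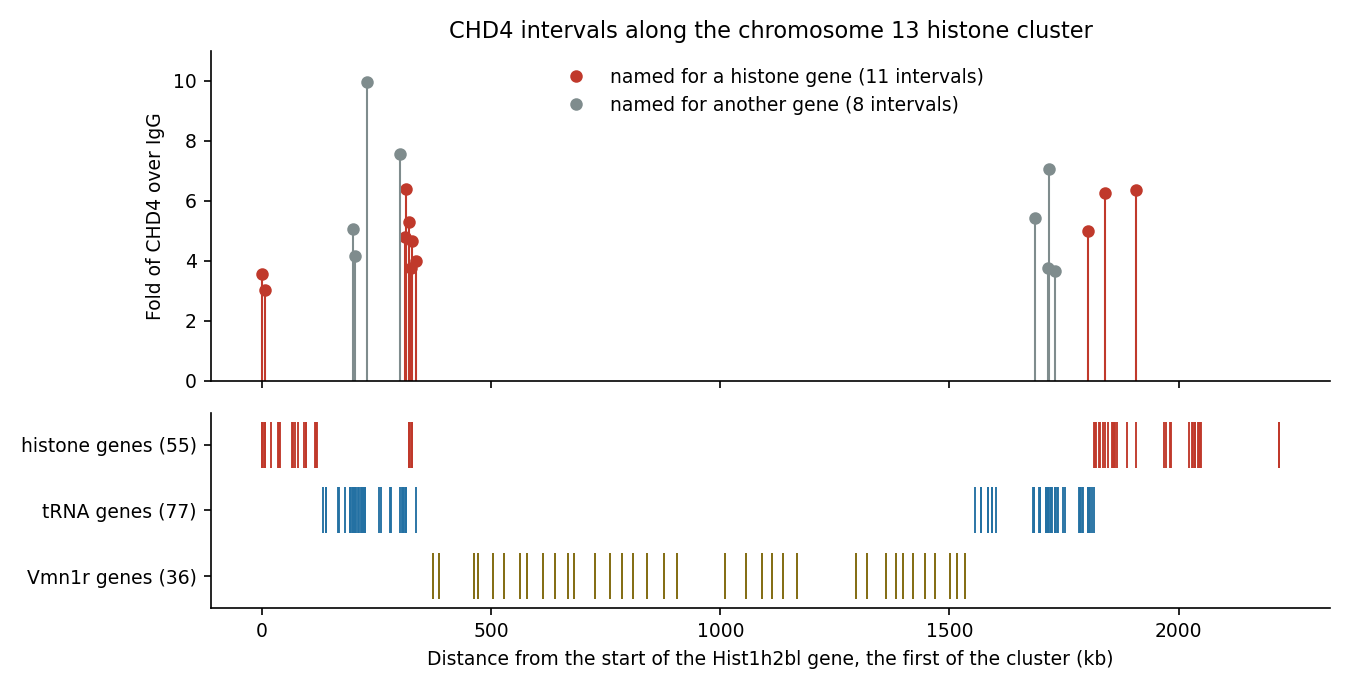
The upper panel gives the fold of CHD4 over IgG of the 19 intervals in the cluster against distance from its first gene in kb, in red where named for a histone gene and in grey otherwise, and the lower panel marks histone, tRNA and Vmn1r genes. Intervals stand in groups at either side of a stretch of 1.35 Mb that holds 36 Vmn1r genes and no histone gene.

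Gaps between the midpoints of neighbouring histone-named intervals were 5.82, 305, 2.45, 6.79, 5.24, 1.90, 7.89, 1467, 37.2 and 67.3 kb along the cluster. Their median was 7.34 kb, and 6 of the 10 were under 10 kb. Over all 19 intervals of the cluster the median gap was 11.9 kb, against 420 kb over all 96 gaps of chromosome 13. The gap of 1467 kb spans the long stretch without an interval, from 22051041 to 23401620, in which RefSeq has 38 protein-coding genes, 36 of them Vmn1r vomeronasal receptor genes, and 12 tRNA genes.

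Histone genes of the cluster stand in 4 blocks when a gap over 150 kb, a distance chosen after the positions had been seen, separates them. In the smallest stretch with intervals, 5 genes within 8.54 kb (Hist1h2ah, Hist1h2bk, Hist1h4i, Hist1h2ag and Hist1h2bj), all 5 were named and 3 intervals lay within the span. Another 3 intervals flanked it at tRNA genes, and Hist1h2ah and Hist1h2bj were named only for these. The block before this stretch holds 19 genes over 122 kb, of which 2 were named, and the block after it 29 genes over 233 kb, of which 3 were named. Of starts in the promoter table, an interval contained 3 of 5 in the small stretch. The counts were 2 of 18 in the block before and 2 of 26 in the block after. The last block, the testis genes Hist1h2ba and Hist1h2aa, had none, and their starts lay 312 kb from an interval.

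**Figure D5:**
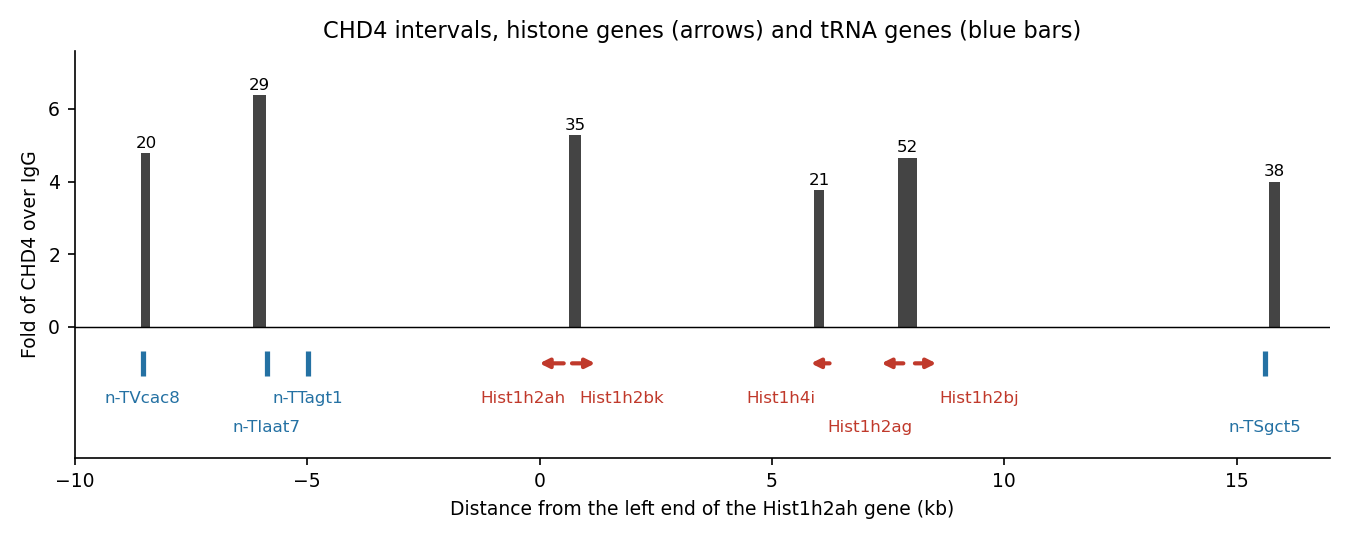
Black bars give the position, width and fold of CHD4 over IgG of 6 intervals against distance in kb from the left end of Hist1h2ah, with the number of CHD4 fragments above each. Red arrows are the 5 histone genes in their direction of reading and blue bars tRNA genes; 3 intervals stand at histone genes with 35, 21 and 52 fragments and the outer 3 beside tRNA genes with 20, 29 and 38.

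Long runs of histone genes had no interval. From the Hist1h2bm interval onward, 192.5 kb with 14 histone genes, Hist1h4j to Hist1h2br, held none. Among those 14, the promoters of 6 share at least 50% of their 50-base windows exactly with the promoter of another gene, so that a short read from such a window matches more than 1 place. The sources used here leave the treatment of such reads unstated, and their part in the missing intervals was not tested. The 15 histone genes after the Hist1h1e interval, Hist1h2ac to Hist1h2aa over 312 kb, also had none, and none of their 13 listed promoters shares that many windows. Another 6 genes between the Hist1h4h and Hist1h1d intervals and 8 between those of Hist1h1d and Hist1h1e had none either. The 7 genes with a start inside an interval share no window with another promoter in the table. The H3 genes Hist2h3c2 and Hist2h3c1 each share 74.1% of their windows with other promoters, so a promoter read of either may match more than 1 place. The Hist2h3c2 interval itself lay outside this promoter window.

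Among genes with a start in the promoter table, back-to-back H2A and H2B genes formed 10 pairs with 163 to 280 bases between starts, a median of 203.5. An interval reached the shared DNA of 3 of these 10, the pairs shown above. The other 7 had none, and these were Hist1h2ak/Hist1h2bn, Hist1h2an/Hist1h2bp, Hist1h2bq/Hist1h2ao, Hist1h2ap/Hist1h2br, Hist1h2ae/Hist1h2bg, Hist1h2bf/Hist1h2ad and Hist1h2ba/Hist1h2aa. Intervals were thus present at the first pair of the cluster and at both pairs of the small block, and at none of the 3 counted pairs beyond the Vmn1r stretch. H2A and H2B neighbours of which 1 has no listed start were not counted. Among these are Hist1h2ac and Hist1h2bc, Hist2h2ac and Hist2h2be, the pseudogene Hist1h2aj and Hist1h2bm, and the pseudogene Hist3h2bb and Hist3h2a. The Hist1h2bm interval reached the DNA between Hist1h2aj and Hist1h2bm. No interval reached the DNA between the genes of the other neighbours named here.

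The other 8 intervals of the cluster stood mostly at tRNA genes, 5 of them within 100 bases of one. Zfp184, a zinc finger gene, had the highest fold of the cluster at its start, 9.95, with 38 CHD4 fragments where IgG predicted 0.738. Prss16, a serine protease gene of the thymus, was named for an interval over n-TVaac3 with a fold of 7.57. C230035I16Rik, a gene of no described product, was named for 3 intervals. They had folds of 3.76 at its start, 7.05 at 1.70 kb over n-TYgta7 and 3.67 at 14.7 kb, 12 bases from n-TVcac9. Mir1983, a microRNA gene, was named for 2, with folds of 5.06 over n-TLcaa2 and 4.14 over n-TSaga5. The last was named for Abt1, an activator of basal transcription, with a fold of 5.43 at 21.8 kb. Counted over the whole cluster, 9 of 19 intervals lay within 100 bases of a tRNA gene. Of the 77 tRNA genes of the cluster, 8 were overlapped (10.4%, exact 95% interval 4.59 to 19.4), where 5.96% of all 403 were and 4.91% (2.83 to 7.85) of the 326 elsewhere.

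Few genes that serve histone supply were named, and lists this short would hold few at the background of 6.1% too. None of 19 genes for histone pre-mRNA processing and histone gene transcription was named, among them Npat, the coactivator of histone transcription, and Slbp, which binds the stem-loop. None of 18 replication-independent histone genes and none of 4 U7 genes was named. Of 26 histone chaperone genes, 2 were named (7.69%). Hjurp, the chaperone of the centromeric histone CENP-A, had an interval at 1 base from its start (chromosome 1, 88277296 to 88277505) with 100 CHD4 fragments (81.4 to 122) where IgG predicted 18, a fold of 2.31. Daxx, a chaperone of histone H3.3, had one at its start (chromosome 17, 33909339 to 33909689) with 43 fragments (31.1 to 57.9) over 5.54, a fold of 2.97. Both folds lay below the lowest of the 13 histone intervals, while the Hjurp summit held more CHD4 fragments than any of them.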

How the data were processed

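CHD4 and IgG CUT&Tag samples were sequenced, and the deposited file is 1 list of peaks with the CHD4 label set against IgG in its peak names. The build mm10 was used with MACS2 2.1.2, Bowtie2 2.2.5 and Trim Galore 0.5.0, per the submitters' processing notes. Step order, the handling of duplicate reads and of reads with several matches, and the joining of replicates are unstated in the sources used here. Per the file headers, the authors' list gives a fold, the ratio of CHD4 to IgG signal at a summit, and its log2. The deposited −log10 p and −log10 q were identified by the caller's column order and their values, since their headers are spreadsheet errors. At all 2066 summits the deposited score was the −log10 q multiplied by 10 and truncated. The largest q was 0.0492. Values of 1 peak stand in the header line, and that peak is not analysed here. Fold and q are the authors' own values and were used only to describe, rank and filter intervals within this list. Gene names, distances and classes are the authors' annotation.

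An interval took the values of its summit of highest fold. The histone genes, the gene lists, the promoter motifs and the distances were chosen with earlier results of these data known. Every named histone gene is described with all its intervals, then the other genes named in the chromosome 13 cluster and every named member of the lists. Positions came from RefSeq tables of GRCm38.p6, without 340 genes that begin before 3 Mb on a chromosome. The gene table has no strand, so starts were taken from the promoter table, which lacks 8 of the histone genes. CHD4 fragments and the IgG expectation were recovered from fold and −log10 p on the caller's Poisson model. A CHD4 scale of 0.4287, which makes the CHD4 library 2.33 times the IgG library, gave 1 whole number at all 2066 summits with an error of at most 0.0005 in −log10 p. Among 60 sampled summits, the best of the other scales did so for 18.3%. The step was also tested on simulated data. Exact 95% intervals, Clopper-Pearson for shares and Poisson for fragments, cover counting error only. No test between conditions was made, because the list has no value for single samples. Alternatives were summits in place of intervals, stricter thresholds, overlap in place of nearest start, exclusion of small RNA genes and 1 interval per locus. Python 3.11.15 with numpy 2.4.6, pandas 2.3.3, scipy 1.17.1 and matplotlib 3.10.9 was used.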

Additional observations from a re-analysis of the deposited data

How the results depend on the processing

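With 12 histone genes and 13 intervals as the starting counts, keeping only intervals with a fold above the list's median left 6 genes and 7 intervals, and 1 interval per locus of 10 kb left 7 genes and 7 intervals. Overlap with the gene body left 7 intervals, and the body widened by 1 kb left 8. A RefSeq start within 1 kb, chosen after seeing the data like the 100-base tRNA limit and the exclusion of pseudogenes, also left 8. The 7 promoter intervals became 3 at a −log10 q of at least 2, 2 above the median fold and 3 with 1 per locus. The median fold stayed between 4.28 and 5.28 under all 10 alternatives, inside the 95% interval of the median, 3.76 to 6.25. The 95% intervals of this median and of the median gap are spreads over members of 1 call, many of them neighbours. They treat the members as independent and give no error over replicates. The median gap of 7.34 kb lay within its own wide interval, 2.45 to 305 kb, throughout, but was 36.6 kb under the overlap and start alternatives and without intervals within 100 bases of a tRNA gene. It was 7.89 kb without intervals that overlap a transfer, small nuclear or 7S RNA gene, 37.2 kb above the median fold and 190.1 kb with 1 per locus. Of 50 values recomputed under the alternatives, 40 stayed within their limits and 10 did not, and the cause of these 10 was not tested. The 40 include all 10 for the median fold and all 10 for the median gap. Their limits were so wide that a gap of 190.1 kb still lay inside, so the count does not show stability. At a −log10 q of at least 2, 8 genes and 9 intervals were left, which also counted as within limits.

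Depth limits single intervals: with 18 to 52 CHD4 fragments each, most of their Poisson intervals overlap. Leaving out a replicate was not possible, as the list is 1 call. No paired analysis was possible because the list has no columns for the numbered samples. A histone gene without an interval was not called at this depth, which does not show that CHD4 was absent there.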
